A study of Mus musculus with 8 samples.

Results

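The expression of 10 genes of the choroid plexus epithelium, Ttr, Kl, Folr1, Clic6, Otx2, Kcne2, Slc4a5, Kcnj13, Prlr and Aqp1, was read in each of 8 pieces of mouse striatum. These genes were picked by symbol out of 55032 genes, as known genes of this epithelium whose spread among the pieces was already known, so that their levels and the way they moved together are given as a description with no test. Striatum had been dissected at postnatal day 60 from 4 female wild type C57BL/6 mice (WT) and 4 female mice of the same strain with the heterozygous deletion 16p11.2+/- (DF), which is carried in every cell. Mice are named by genotype and animal number, WT-1015, WT-1041, WT-1061 and WT-1063 against DF-1018, DF-1037, DF-1059 and DF-1062, with a separate total RNA library for each animal. Gene counts summed to between 15125051 (lowest) and 16523429 (highest) in the 8 libraries. The levels below are FPKM, that is, fragments counted on a gene divided by the length of the gene and the sum of counts in that library, as deposited by the authors.

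The choroid plexus is a sheet of ciliated epithelium around leaky capillaries that hangs into the brain ventricles. It secretes cerebrospinal fluid by moving sodium, chloride, bicarbonate and water from blood to ventricle, it seals blood from fluid with tight junctions, and it exports carrier proteins, vitamins and growth factors. Plexus lies in the lateral ventricles, beside the striatum, and in the midline ventricle between the thalami, and the striatum itself is built mostly of medium spiny neurons.

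The labelled tissue was checked against its markers before the results. The summed FPKM of 8 medium spiny neuron genes, among them Penk and Ppp1r1b, lay between 842 and 1424 in WT mice and at 1330 and 1232 in DF-1018 and DF-1059, but at 327 in DF-1037 and 264 in DF-1062. Ppp1r1b, the gene of DARPP-32, had an FPKM of 83.5 in DF-1037 and 47.5 in DF-1062 against 220 to 359 in the other 6 mice. Penk, the enkephalin precursor gene, had 111 and 115 in this pair against 266 to 456. The summed FPKM of 8 thalamic genes was at least 117 in WT-1063, DF-1018, DF-1037 and DF-1062 and at most 25.8 in the other 4 mice. Striatal markers were thus present in each piece, at unequal levels. In tissue pieces such as these, fewer cells of a type and less RNA per cell cannot be told apart.

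Ttr, the gene of transthyretin, which carries thyroxine and retinol in blood and cerebrospinal fluid, was the most abundant of the 10 genes in WT-1063 and varied the most. Its FPKM was 453 in WT-1015, 1.12 in WT-1041, 10.7 in WT-1061 and 4273 in WT-1063. In DF mice it was 17.9 in DF-1018, 117 in DF-1037, 3.23 in DF-1059 and 7.05 in DF-1062. The highest and the lowest values were both in WT mice, and the 4 DF mice all lay between them. In reads these levels stand for 84201 counts in WT-1063 against 21 counts in WT-1041, a ratio of 3800 (95% counting interval 2486 to 6139). Ttr (ENSMUSG00000061808) lies on chromosome 18 from 20665280 to 20674321 on the forward strand of GRCm38 (GENCODE M21), and its level in WT-1063 was 9.43-fold above that of WT-1015.

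All 10 genes had their highest FPKM in WT-1063, as did 13.5% of the 18294 genes tested across the transcriptome. For each of the 10 the value in WT-1063 was more than 2-fold above that of the next mouse, which held for 0.716% of the genes tested. These are values on which the genes were picked, and nothing is read from them. The excess over the next mouse was between 3.69-fold for Clic6 and 12.5-fold for Kcne2. WT-1015 was the second highest for 8 of the 10 genes, the exceptions being Otx2 and Prlr. DF-1037 followed next for 7 genes. Together the 10 genes took 0.635% of all counts in WT-1063 (95% Wilson interval 0.631 to 0.639%), 0.0714% in WT-1015 (0.0701 to 0.0728%) and 0.0200% in DF-1037 (0.0193 to 0.0207%). In the other 5 mice their share was between 0.00365% in WT-1041 (0.00336 to 0.00396%) and 0.0104% in DF-1062 (0.00988 to 0.0109%). These intervals cover counting error only.

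**Figure D1:**
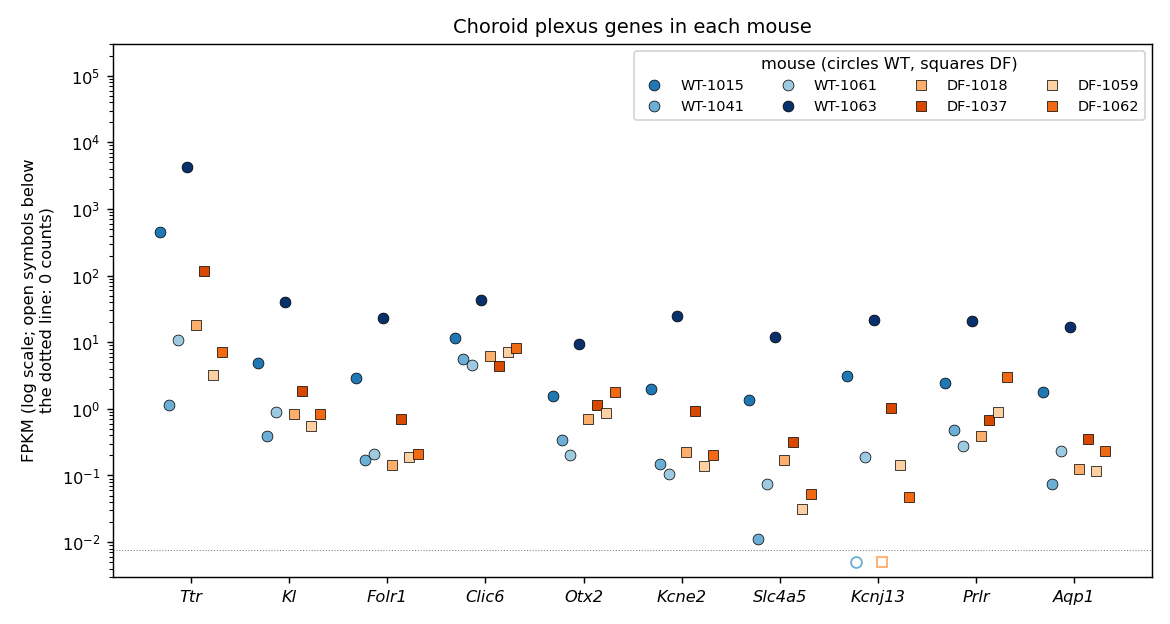
FPKM (log axis) of the 10 choroid plexus genes, with 1 point per mouse, circles for the 4 WT and squares for the 4 DF mice. The darkest circle, WT-1063, lies on top for each gene, and the open symbols of Kcnj13 stand for the 2 mice with 0 counts.

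Among the channels and transporters of fluid secretion, Slc4a5 had the widest range after Ttr. It encodes an electrogenic sodium bicarbonate cotransporter of the epithelium's ventricular face and lies on chromosome 6 from 83219828 to 83304945. Its FPKM was 1.36 in WT-1015, 0.0112 in WT-1041, 0.0736 in WT-1061 and 12.001 in WT-1063. In DF mice it was 0.170 in DF-1018, 0.314 in DF-1037, 0.0318 in DF-1059 and 0.0521 in DF-1062. WT mice again held both ends of the range. The lowest of these values rests on 1 count in WT-1041, so that the ratio of 1067 between the ends has a 95% counting interval from 191 to 42187.

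Kcnj13, on chromosome 1 from 87386363 to 87394729, encodes the inward rectifier potassium channel Kir7.1. It had 59 counts in WT-1015, 0 in WT-1041, 4 in WT-1061 and 442 in WT-1063, and 0, 20, 3 and 1 counts in DF-1018, DF-1037, DF-1059 and DF-1062. WT-1063 was at least 139.6-fold above WT-1041, taking 3 counts as the limit that a count of 0 allows in that library. Both groups held a mouse with 0 counts. Of its exon sequence 49.1% overlaps Gigyf2 on the opposite strand, and the strand setting of the counting is not given in the sources used here, so that the counts of Kcnj13 are uncertain.

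Kcne2 encodes an accessory subunit of potassium channels that in this epithelium joins KCNQ1. It had 53, 4, 3 and 709 counts in WT-1015, WT-1041, WT-1061 and WT-1063. In DF mice there were 6 counts in DF-1018, 25 in DF-1037, 4 in DF-1059 and 6 in DF-1062. WT-1063 exceeded the lowest mouse by 240-fold in FPKM (95% counting interval 81.6 to 1165). Aqp1 (chromosome 6, 55336432 to 55348555) encodes the water channel of the ventricular face. FPKM values of Aqp1 were 1.76, 0.0745, 0.232 and 17.1 in WT-1015, WT-1041, WT-1061 and WT-1063. In DF-1018, DF-1037, DF-1059 and DF-1062 it was 0.125, 0.347, 0.117 and 0.230. Kcne2 and Aqp1 thus shared the order of their 3 highest mice with Ttr. Apart from WT-1063 and WT-1015, no mouse had more than 25 counts of Kcne2 or 14 counts of Aqp1.

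Clic6 stood apart from the other genes. It belongs to the chloride intracellular channel family and lies on chromosome 16 from 92485736 to 92541243, 188 kb beyond Kcne2, which lies from 92292389 to 92298129. Its FPKM was 11.7, 5.55, 4.61 and 43.2 in WT-1015, WT-1041, WT-1061 and WT-1063. In DF mice it was 6.29 in DF-1018, 4.36 in DF-1037, 7.15 in DF-1059 and 8.10 in DF-1062. The lowest mouse, DF-1037, still had 262 counts, and WT-1063 exceeded it by 9.90-fold (95% counting interval 8.72 to 11.3). DF-1037, next after WT-1015 for Ttr, was thus the lowest for Clic6, although both genes were highest in WT-1063 and next in WT-1015.

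Promoter windows were searched for the core motif of OTX2 and for the TATA box because these genes moved together. The windows reach from 250 bases before to 50 bases after each RefSeq start (GRCm38.p6). Windows were available for 7 of the 10 genes, with 13 starts. A window each of Kcnj13, Slc4a5 and Otx2 is shown as an example, with the motif in capitals, each read 5′ to 3′ on the strand of the gene.
Kcnj13, chr1:87394680-87394979, reverse strand: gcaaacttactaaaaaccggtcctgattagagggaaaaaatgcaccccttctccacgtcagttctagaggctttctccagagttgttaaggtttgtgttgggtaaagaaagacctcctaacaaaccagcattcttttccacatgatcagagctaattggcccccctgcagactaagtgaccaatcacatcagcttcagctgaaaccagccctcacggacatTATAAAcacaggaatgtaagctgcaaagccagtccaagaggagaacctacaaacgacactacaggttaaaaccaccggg
Slc4a5, chr6:83237125-83237424, forward strand: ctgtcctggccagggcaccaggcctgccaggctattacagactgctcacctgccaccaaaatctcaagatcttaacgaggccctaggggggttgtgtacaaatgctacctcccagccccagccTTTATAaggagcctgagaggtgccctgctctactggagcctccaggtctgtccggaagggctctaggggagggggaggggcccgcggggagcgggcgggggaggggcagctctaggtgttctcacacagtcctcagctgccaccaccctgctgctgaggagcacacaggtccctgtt
Otx2, chr14:48665060-48665359, reverse strand: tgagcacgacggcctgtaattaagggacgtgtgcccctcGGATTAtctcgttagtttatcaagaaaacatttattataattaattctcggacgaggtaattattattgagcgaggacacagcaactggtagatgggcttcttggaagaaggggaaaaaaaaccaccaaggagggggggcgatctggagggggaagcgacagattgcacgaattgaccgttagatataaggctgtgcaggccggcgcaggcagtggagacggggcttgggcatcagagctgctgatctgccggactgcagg
The motif TATAAA begins 29 bases before the start of Kcnj13. In the Slc4a5 window its reverse complement TTTATA begins 127 bases before the start, and a further start of Otx2 holds TATAAA as well. TATAAA on either strand was in 3 of the 13 windows and in 13.6% of the 32851 windows of all genes. TAATCC, the core that OTX2 binds, was searched on both strands, and its reverse complement GGATTA occurs 211 bases before this Otx2 start. It was in 1 of the 13 windows and in 7.06% of all windows. A match says only that these letters are in the window.

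Of the carriers and signalling proteins, Kl and Folr1 had the same 3 highest mice as Ttr, in the same order. Kl encodes klotho, a coreceptor for FGF23 that is also shed into cerebrospinal fluid, and lies on chromosome 5 from 150952607 to 150993817. Its FPKM was 4.93, 0.392, 0.883 and 40.4 in WT-1015, WT-1041, WT-1061 and WT-1063. In DF-1018, DF-1037, DF-1059 and DF-1062 it was 0.830, 1.86, 0.547 and 0.843. Kl had at least 56 counts in every piece, and its range was 103-fold (95% counting interval 79.4 to 137). Folr1, the folate receptor that carries folate into cerebrospinal fluid, lies on chromosome 7 from 101858331 to 101870788. It had 100, 6, 8 and 870 counts in WT-1015, WT-1041, WT-1061 and WT-1063 and 5, 25, 7 and 8 counts in DF-1018, DF-1037, DF-1059 and DF-1062. Outside WT-1063, WT-1015 and DF-1037, the counts of Folr1 lay within 5 to 8.

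Prlr and Otx2 did not follow Ttr in DF-1062. Prlr encodes the prolactin receptor and lies on chromosome 15 from 10177238 to 10349180. Its FPKM was 2.43, 0.481, 0.278 and 20.6 in WT-1015, WT-1041, WT-1061 and WT-1063. In DF-1018, DF-1037, DF-1059 and DF-1062 it was 0.389, 0.684, 0.910 and 2.99. DF-1062 was thus second only to WT-1063, with 759 counts. Prlr stood there at 14.6% of its own FPKM in WT-1063, against 0.165% for Ttr. Otx2, a homeodomain transcription factor that maintains choroid plexus identity, lies on chromosome 14 from 48657677 to 48673819. It had an FPKM of 1.54, 0.340, 0.202 and 9.50 in WT-1015, WT-1041, WT-1061 and WT-1063, and 0.715, 1.13, 0.874 and 1.81 in DF-1018, DF-1037, DF-1059 and DF-1062. Otx2 was likewise second in DF-1062, and all 4 DF mice had more of it than WT-1041 and WT-1061. Of its exon sequence 3.98% overlaps other genes, one of them on the opposite strand.

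In DF-1062 genes of the habenula, which lies at the midline beside a ventricle, were also high. The summed FPKM of 5 habenular genes was 23.3 in this mouse, between 1.82 and 5.16 in WT mice and between 2.99 and 4.33 in the other DF mice. Gpr151, an orphan receptor of habenular neurons, had 171 counts in DF-1062 and 11 to 21 counts in the other mice, and Tac2, which encodes neurokinin B, had 267 against 13 to 71. All 5 genes of the list were highest in DF-1062, as were 28.6% of the genes tested. The part of these cells in the Prlr and Otx2 values was not tested.

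Expressed as a percent of its own FPKM in WT-1063, each gene can be compared across pieces without regard to its level. In WT-1015 the 10 genes lay between 7.99% for Kcne2 and 27.1% for Clic6, with a median of 12.02%. Clic6, Otx2 and Prlr were set aside after their values were seen, and the other 7 genes then lay between 7.99% and 14.3% in WT-1015 and between 2.03% and 4.77% in DF-1037. Within each of these 2 pieces the 7 genes differed by less than 3-fold in this measure, and in each of the 5 remaining mice by more. In those 5 mice Slc4a5 had 1 to 15 counts and Folr1, Kcne2, Kcnj13 and Aqp1 at most 10. Their percents there thus carry a large counting error. In WT-1041 Ttr was at 0.0263% of its value in WT-1063, Slc4a5 at 0.0937%, Aqp1 at 0.437%, Kcne2 at 0.595%, Folr1 at 0.728% and Kl at 0.969%. Prlr, Otx2 and Clic6 were at 2.34%, 3.58% and 12.9% there. Kcnj13 had 0 counts there, Ttr had the lowest percent of the other genes and Clic6 the highest. Ttr accordingly made up 82.0% of the counts of the 10 genes in WT-1063, 77.3% in WT-1015 and 71.5% in DF-1037, 33.5% in DF-1018 and 28.0% in WT-1061, and 8.30% in DF-1062, 7.03% in DF-1059 and 3.76% in WT-1041.

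**Figure D2:**
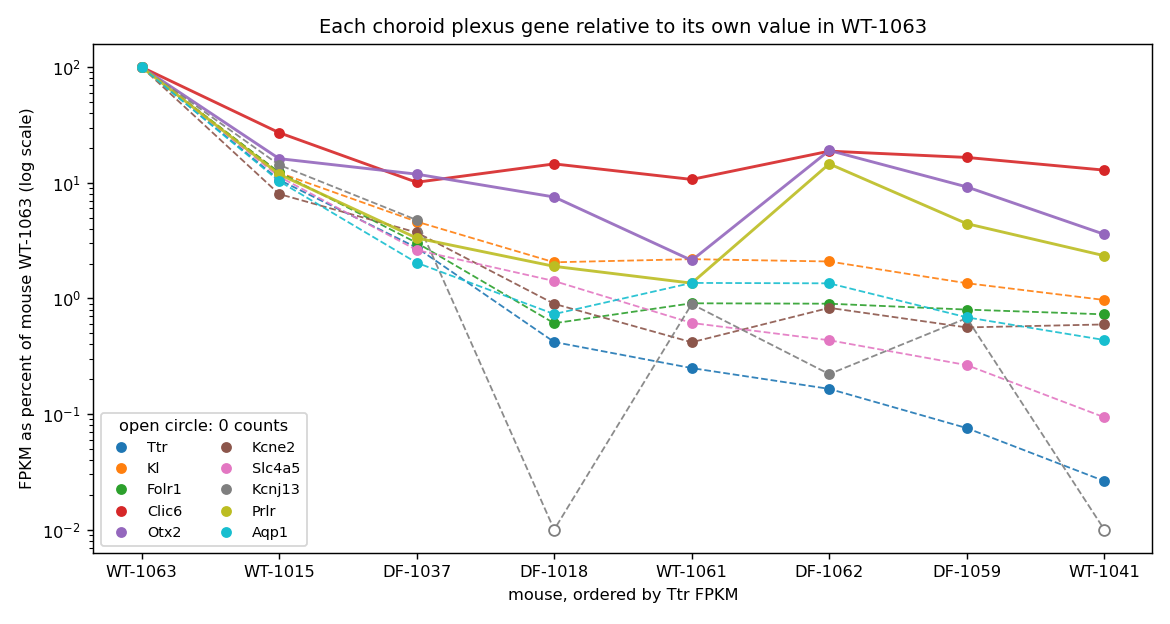
FPKM of each choroid plexus gene as a percent of its own value in WT-1063 (log axis), with mice ordered by Ttr and lines joining the values of a gene. The 7 dashed genes lie close together in WT-1015 and DF-1037 and spread out in the other 5 mice (open circles for 0 counts of Kcnj13). In those 5 mice Slc4a5, Folr1, Kcne2, Kcnj13 and Aqp1 had at most 15 counts. Clic6 (solid red) lies near 10% or above throughout, and Otx2 and Prlr (solid) lie higher in DF-1062 than in WT-1041.

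A list of 31 other genes of this epithelium was read beside the 10. Like all lists here, it was chosen with earlier results of these data known, so that counts over it are a description. Of the 31 genes, 30 had their highest FPKM in WT-1063, against 13.5% of the genes tested. In 29 of the 31 the value there was more than 2-fold above the next mouse, against 0.716%. The exception to the former was Cldn3, a claudin with at most 10 counts per mouse. In 26 of the 31 genes WT-1015 came second. Enpp2, the gene of the secreted lysophospholipase autotaxin, which oligodendrocytes also express, had the highest mean level and an FPKM of 731 in WT-1063 and 132 in WT-1015 against 39.3 to 76.8 in the other 6 mice. For 1500015O10Rik, which encodes the secreted peptide precursor ECRG4, the values were 68.2 and 6.74 against 0.812 to 2.42. Igfbp2, an insulin-like growth factor binding protein, had 43.1 in WT-1063, 5.41 in WT-1015 and 6.81 in DF-1037, and at most 3.43 in the others. Ace, the angiotensin-converting enzyme, had 29.9 and 9.18 against 2.96 to 5.78. As a median over the 31 genes, WT-1015 stood at 16.4% of WT-1063 and DF-1037 at 8.39%, and the remaining mice between 3.56% and 6.30%.

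The genes most like the choroid plexus genes were sought over all genes tested, by Pearson's r across the 8 mice with the mean log2 CPM (counts relative to library size, with a prior count of 2) of the 6 genes with enough counts. The 10 closest were Mfrp, F5, Slc13a4, Pcolce, Col8a1, Lepr, Cped1, Angptl2, Tmem72 and Abca4, with r from 0.961 to 0.992, and 6 of them belong to the list of 31. Mfrp, a frizzled-related membrane protein, came first with r = 0.992 over 8 mice and r = 0.973 over the 7 mice without WT-1063. Its FPKM was 17.4 in WT-1063 and 0.0845 to 2.07 in the other mice. Lepr, the leptin receptor gene, which is not on the list, had r = 0.969 over 8 mice and r = 0.904 over 7, and Pcolce, a procollagen processing enhancer of connective tissue, 0.982 and 0.962. All genes of a mouse share its library and its tissue makeup, so that r is a description and no p is given.

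Genes that work with these proteins followed them only in part. Of 18 such genes 7 were highest in WT-1063, against 13.5% of the genes tested. In 2 of the 18, Slc4a2 among them, the value there was more than 2-fold above the next mouse, against 0.716%. Slc4a2, the anion exchanger AE2, had an FPKM of 16.4 in WT-1063 and 4.81 to 5.90 in the other mice, and was named after its values were seen. Among the most abundant of the 18, Atp1b1, a sodium pump beta subunit, Car2, a carbonic anhydrase, and Slc4a10, a bicarbonate transporter, are also transcribed in neurons or glia, and their highest mouse exceeded the lowest by 1.59-fold to 1.83-fold. Kcnq1, the channel that KCNE2 joins, had 4 counts in DF-1018, 20 in DF-1062 and 12 in WT-1063, where it was not highest.

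Lists of neighbouring tissues were set beside the choroid plexus genes. All 12 meningeal genes were highest in WT-1063, against 13.5% of the genes tested. Their summed FPKM was 23.1 there, 12.3 in DF-1037 and 6.52 to 8.37 in the other 6 mice. Ogn, which encodes osteoglycin of fibrous tissue, had an FPKM of 5.69 in WT-1063 and 0.534 to 1.93 elsewhere, and Islr, a marker of fibroblasts, 2.83 against 0.562 to 2.13. The 10 ependymal genes summed to 34.0 in WT-1063, 28.7 in WT-1015 and 36.7 in DF-1062, and to 12.8 to 26.2 in the other 5 mice. Foxj1, the master regulator of motile cilia, ranged from 2.68 in WT-1061 to 6.11 in WT-1063, and Tmem212 from 1.62 in WT-1061 to 7.18 in DF-1062. The 5 blood genes, led by Hbb-bs and Hba-a1 of haemoglobin, summed to 96.3 in WT-1063 against 56.2 to 101 in the other mice. The ependymal and blood sums thus varied by less than 3-fold, and the meningeal sum went from 6.52 to 23.1. The sum of the 10 choroid plexus genes went from 8.29 to 4485, of which Ttr gave 4273. Single genes of these lists could reach or come close to the 9.90-fold range of Clic6, with 10.7-fold for the meningeal gene Ogn and 9.05-fold for the ependymal gene Tekt1.

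Thalamic and choroid plexus genes were high in different sets of pieces, which had WT-1063 and DF-1037 in common. Slc17a6, the vesicular glutamate transporter of thalamic neurons, had an FPKM of 44.7 in WT-1063, 40.5 in DF-1037 and 56.0 in DF-1062, with 16.8 in DF-1018 and 1.58 to 5.47 in the other 4 mice. Prkcd, a protein kinase C of thalamic relay neurons, had 70.4, 82.0 and 26.3 in these 3 mice and 49.8 in DF-1018. WT-1015, second for Ttr, had a thalamic sum of 19.3, and DF-1062, with a thalamic sum of 155, had a Ttr FPKM of 7.05. DF-1018, with a thalamic sum of 117, had a Ttr FPKM of 17.9, next after DF-1037. The part of neighbouring tissues in the levels of the choroid plexus genes was not tested.

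**Figure D3:**
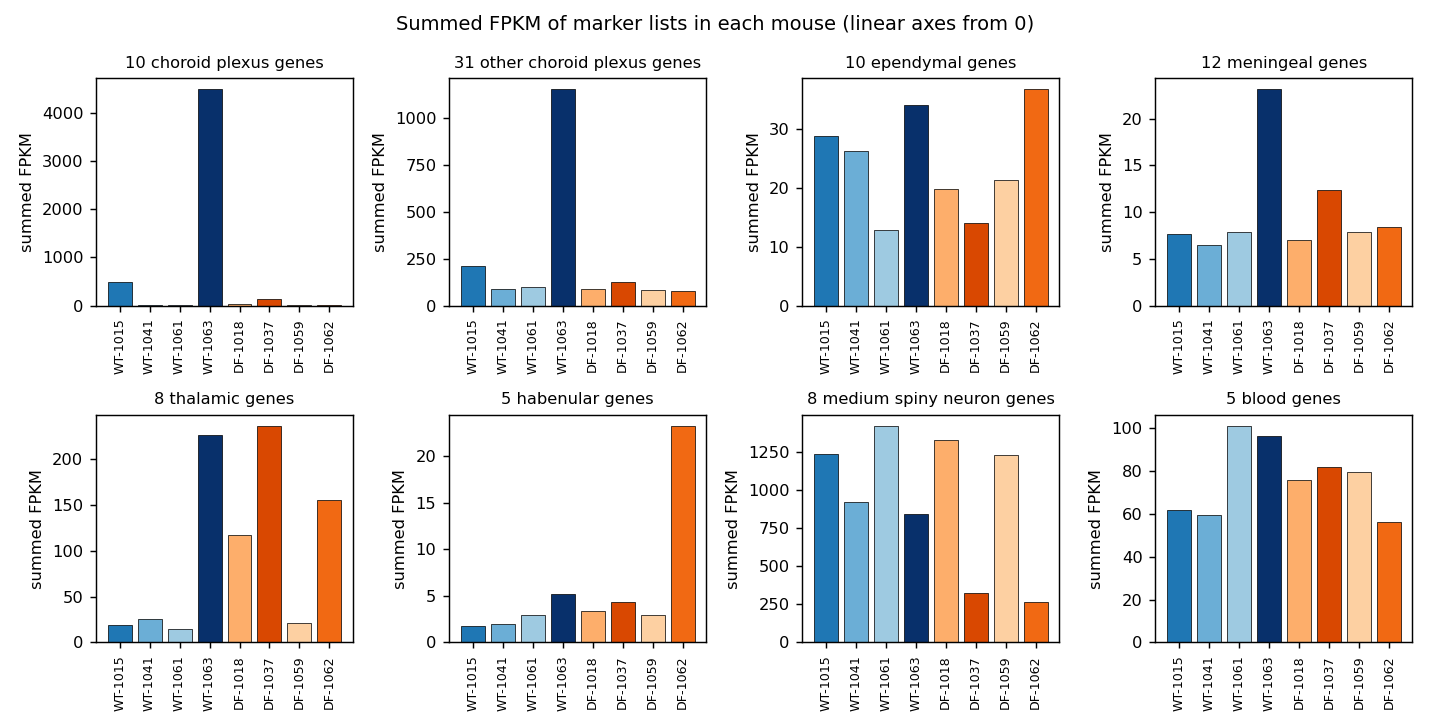
Summed FPKM (linear axes from 0) of 8 marker lists, with 1 bar per mouse, blue for WT and orange for DF. The choroid plexus lists stand out in WT-1063 and, lower, in WT-1015, the thalamic list in WT-1063, DF-1018, DF-1037 and DF-1062, and the habenular list in DF-1062.

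Whether the deletion changed these genes was asked by comparing DF with WT mice. Between the genotypes no choroid plexus gene passed the test. Counts were fitted by edgeR (quasi-likelihood test), with p-values adjusted over all 18294 genes by the Benjamini-Hochberg method. It called 0.109% of the genes at an adjusted p under 0.05, 0.0929% as lower and 0.0164% as higher in DF mice. Ttr, Kl, Clic6, Otx2, Slc4a5 and Prlr had enough counts to be tested, and 0 of these 6 were called, with an adjusted p of 0.859 for each. Without adjustment 3 of the 6 had a p under 0.05, as did 4.32% of all genes tested, and DESeq2 and limma also called 0. With DESeq2 this unadjusted count was 6 among the 10 genes, of which Kcne2 received no p. It was 8 of 10 in edgeR with no filter on low counts, 0 of 6 with limma and 0 of 6 without WT-1063. Folr1, Kcne2, Kcnj13 and Aqp1 did not reach the count minimum in enough mice. With no filter their log2 fold changes, in which a negative value stands for lower expression in DF mice, were -4.42 for Folr1 (standard error 1.32), -4.18 for Kcne2 (standard error 1.40), -4.34 for Kcnj13 (standard error 1.51) and -4.54 for Aqp1 (standard error 1.32), with an edgeR adjusted p of 0.743 for each. DESeq2 gave an adjusted p of 0.564 for Aqp1, 0.625 for Folr1 and 0.996 for Kcnj13. For none of the 10 genes were the groups apart, which was so for 2.83% of the genes tested, and for 8 of them the range of the DF mice lay inside that of the WT mice. The exceptions were Folr1 and Clic6, for which the lowest mouse was a DF mouse.

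In the main test the log2 fold change was -5.02 for Ttr (standard error 2.18) and -4.57 for Slc4a5 (standard error 1.69). It was -3.52 for Kl (standard error 1.31), -2.29 for Prlr (standard error 1.26), -1.38 for Otx2 (standard error 1.03) and -1.35 for Clic6 (standard error 0.66). The values depended on WT-1063 and WT-1015. Without WT-1063 the log2 fold change of Ttr was -2.11 (standard error 1.71) and that of Clic6 -0.20 (standard error 0.33), while Otx2 and Prlr turned to 0.67 and 0.17. With WT-1015 also left out, a choice made after the values were seen, all 6 were higher in DF mice. The log2 fold change went from 0.34 for Clic6 (standard error 0.23) to 2.62 for Ttr (standard error 1.65). For Otx2 it was 2.04 (standard error 0.455). In this edgeR fit 0 of the 6 were called, with an adjusted p of 0.919 for each, and 1 had an unadjusted p under 0.05.

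**Figure D4:**
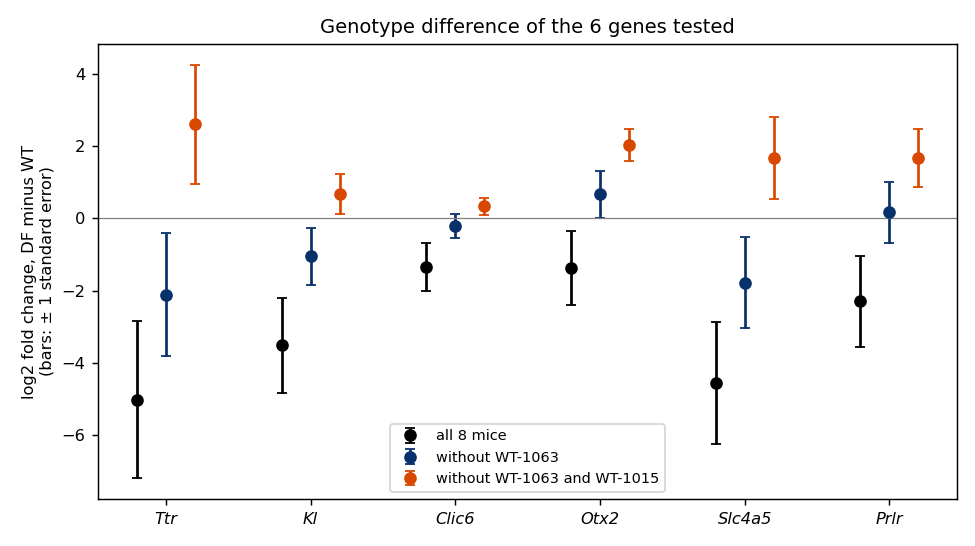
Log2 fold change of DF against WT (edgeR) for the 6 choroid plexus genes tested, with bars of 1 standard error, for all 8 mice, without WT-1063 and without WT-1063 and WT-1015. All 6 points lie below 0 with all mice and above 0 once both WT mice are left out.

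The other genes of the epithelium and the partner genes gave the same count. Of the 31 genes 22 were tested, 0 were called, and the median log2 fold change was -1.98 against -0.0093 over all genes tested. All 22 were negative, against 9484 of the 18294 genes tested, and 13 had an unadjusted p under 0.05 in edgeR, against 4.32%. Without WT-1063 the median was -0.47, with 19 of 22 negative. After WT-1015 was left out as well it was 0.36, with 6 of 22 negative. DESeq2 and limma called 0 of this list. Of the 18 partner genes all were tested and 0 were called by edgeR, DESeq2 or limma. Their median was -0.21, and 3 had an unadjusted p under 0.05 in edgeR, against 4.32% of all genes tested.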

How the data were processed

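Per the labels, striatum of 4 WT and 4 DF mice was sequenced, and groups and animal numbers were taken from the sample titles. The authors filtered the reads, mapped them with Hisat2, extracted the deposited raw counts per gene with Htseq-count and deposited FPKM beside them. The submitters' processing notes also name Bowtie 0.12.2, mm8 and mm9. The build, annotation and strand setting of the counts are not given in the sources used here. The deposited FPKM equals the count over a fixed gene length and the total count, and this length was within 1% of GENCODE M21 (GRCm38) for 96.2% of 17180 genes, but not for Ttr (1219 against 1186 bases). The authors' own comparison (group means, fold changes and p-values) and the FPKM summary were not used.

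The 10 genes and all lists were chosen with earlier results of these data known. The main test was the quasi-likelihood test of edgeR 4.0.16 (R 4.3.3) with TMM factors, after filterByExpr at its settings of 10 (count) and 15 (total), with adjustment over 18294 genes. The standard error was taken from the log2 fold change and F. Each list's named genes were its most abundant ones (4 of the other choroid plexus and partner genes, 2 of the other lists), with the 10 genes of highest r and any gene past the threshold. Alternatives were DESeq2 1.42.0, limma-trend (limma 3.58.1) on log2(FPKM + 1) and log2(FPKM + 0.1), RLE factors, library totals, other filters and leaving out single mice. Simulated data with known changes served to check the fits. Within a genotype, chi-square per degree of freedom between libraries was 8.88 to 62.9, so that each library was 1 sample. Count intervals and the limit of 3 counts for a count of 0 cover counting error only. Labels do not say whether the animals shared litters. Lipidomics and other assays were not analysed here. The values of some partner genes are not reported here.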

Additional observations from a re-analysis of the deposited data

Results flagged for a closer look

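The FPKM values of the 10 genes form 20 groups, each holding 1 gene in the 4 mice of a genotype. In 13 of the 20 groups a single mouse stood far from the other 3. The limit for this is one that about 1 in 20 groups pass by chance, if genes are not picked on their values. Here the genes were picked for this spread and share the same mice. The count is thus a description and cannot be set against that rate. The measure divides the distance between this mouse and its closest neighbour by the distance between the extremes. For WT-1063 it was 0.924 for Kcne2, 0.901 for Aqp1, 0.894 for Ttr, 0.894 for Prlr, 0.888 for Slc4a5, 0.887 for Kl, 0.884 for Folr1, 0.857 for Kcnj13 and 0.857 for Otx2. For DF-1037 it was 0.893 for Kcne2, 0.880 for Folr1, 0.871 for Ttr and 0.858 for Kcnj13. WT-1063 was the outlying mouse in 9 of the 13, each time as the highest of its group, and DF-1037 in the other 4, also as the highest.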

How the results depend on the processing

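No choroid plexus gene, other choroid plexus gene or partner gene was called under any alternative, those with a mouse left out included. Kcne2 received no p from DESeq2. Over the 95 alternative values of the 6 log2 fold changes, 87 kept their direction and 8 turned. Without WT-1063 Otx2 turned to 0.67 and Prlr to 0.17, and with each mouse left out in turn Otx2 ranged from -1.76 to 0.67 and Prlr from -3.14 to 0.17, Ttr from -6.98 to -2.11, Kl from -3.99 to -1.05, Slc4a5 from -5.32 to -1.78 and Clic6 from -1.65 to -0.20. Without WT-1015 and WT-1063, a choice made after seeing the data, the values were 2.62 for Ttr, 0.67 for Kl, 0.34 for Clic6, 2.04 for Otx2, 1.68 for Slc4a5 and 1.68 for Prlr. On log2(FPKM + 1) Ttr was at -2.32 and Otx2 at -0.29. Of all genes, 20 were called, between 8 and 18 with a mouse left out and 3 without both WT mice. The ratio of the highest to the lowest mouse fell without WT-1063 to 403 for Ttr and 2.68 for Clic6, and without both WT mice to 104 and 1.86. No paired analysis was possible because no animal number occurs in both genotypes. At counts of 0 to 10 in several mice, differences in Folr1, Kcne2, Kcnj13 and Aqp1 between those mice were not detectable.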
